A study of Mus musculus with 12 samples.

Results

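4T1 is an established mouse mammary carcinoma line, and clone 2 was compared here with clone 1, both being Etv4 knockout clones grown on plastic in 2D. The comparison is between 4 of the 12 libraries of the series, 2 per clone. It covers the 13763 genes of 31017 listed that passed a filter on counts over all 12 libraries. With the 4 clone libraries alone 11343 genes passed, so some of the genes tested had few or no reads in either clone in 2D. Per the labels, each clone was selected after nucleofection of Cas9 with sgRNA against Etv4. The control cells, whose 2 libraries per format are given beside the clones, were pools of clones that received control sgRNA. The same 3 cell populations were also grown in collagen I gels (3D), and those libraries serve here as a repeat of the clone comparison in other cultures. All 12 libraries also entered 1 fit, which set the spread behind each p-value. Both groups compared therefore carry the same targeting, and each stands for 1 clone of cells. With 1 clone on each side, what the clones owe to the targeting and what to their founder cells cannot be told apart.

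The product of Etv4 is a PEA3 transcription factor of the ETS family. PEA3 factors act downstream of growth factor receptors and ERK and have known roles in branching and invasion of mammary epithelium. Mammary carcinoma cells lie on a range from epithelial to mesenchymal states. Epithelial cells hold tight junctions, desmosomes and a sorting machinery for their apical and basolateral faces, whereas mesenchymal cells carry vimentin and secrete more interstitial matrix.

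The libraries of clone 1 had 14.4 and 12.3 M counts, those of clone 2 18.7 and 14.4 M and the control's 13.9 and 14.4 M, on 13459 to 13875 genes each. Epithelial markers were present in both clones: Krt8, Krt18, Epcam and Cdh1 had means of 1096, 1050, 217 and 297 counts per M (CPM) in clone 1 and 1815, 1473, 442 and 261 in clone 2, while the basal keratin Krt5 was at 0 counts. The summed level of 20 luminal markers was 2524 to 2580 CPM in clone 1, 3800 to 3848 in clone 2 and 3213 to 3279 in the control. That of 20 basal markers was 3699 to 3760 CPM in clone 1, 2382 to 2389 in clone 2 and 2702 to 2883 in the control. Of 18 leukocyte markers, 13 were at 0 in clone 1 and 12 in clone 2, Lyz2, S100a8 and Itgam among them, and their sum was at most 3.99 CPM. Of 14 fibroblast markers, 9 and 7 were at 0, including Col3a1, Dcn and Lum. The labels do not say whether the libraries of a group are separate cultures. The p-values therefore measure the spread between libraries within groups, taken over all 12 libraries, and that spread may be technical.

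Transcripts of the targeted gene did not pass the test between the clones. Etv4 (ENSMUSG00000017724.14, mm10 chromosome 11, 101769742 to 101785371) was at 49.8 and 49.2 CPM in clone 1, 49.3 and 46.0 in clone 2 and 78.1 and 76.0 in the control. Clone 2 differed from clone 1 by -0.05 ± 0.07 on the log2 scale (SE; adjusted p = 0.603, edgeR's quasi-likelihood test with Benjamini-Hochberg adjustment, the test behind every adjusted p below). Chromosome 11 as a whole was higher in clone 2, as described further on, and after each chromosome was centred on its median Etv4 stood at -0.31 with an adjusted p of 0.00116. Of the other PEA3 factors, Etv1 was at 32.6 and 31.7 CPM in clone 1 and 31.6 and 32.3 in clone 2 (log2 difference -0.01 ± 0.08, adjusted p = 0.951). Etv5 did rise, from 27.5 and 27.3 CPM in clone 1 to 45.6 and 45.3 in clone 2 (0.73 ± 0.08, adjusted p = 9.8e-08), next to 44.7 and 44.8 in the control.

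At an adjusted p under 0.05, 5732 genes (41.6% of those tested) differed between the clones, 3194 higher (23.2%) and 2538 lower (18.4%) in clone 2. Other scalings gave a more even split, with 2975 higher and 2760 lower under relative log expression size factors and 2907 and 2837 without the genes Gm26917 and Gm42418. Most differences were small. The median size among these genes was 0.44 on the log2 scale, and 914 genes (6.64%) changed at least 2-fold, 505 of them (3.67%) higher and 409 (2.97%) lower. At 8-fold or more, 163 were higher and 96 lower.

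**Figure D1:**
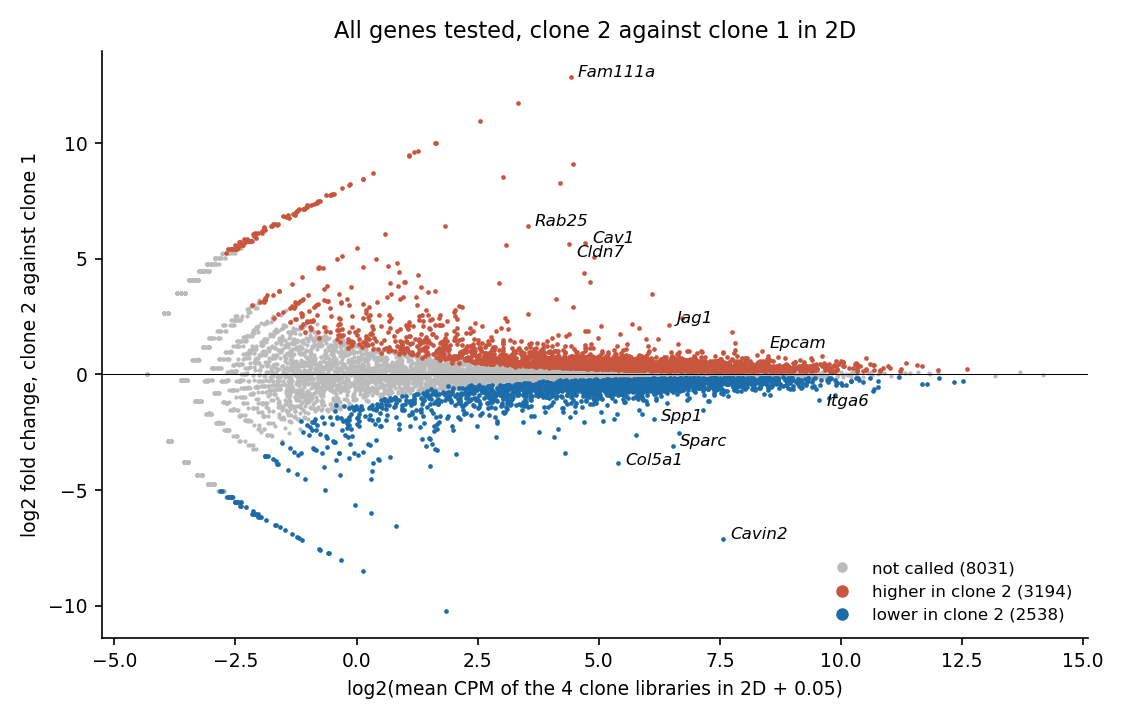
Each point is 1 gene: the horizontal axis is its mean level in the 4 clone libraries in 2D and the vertical axis the log2 fold change of clone 2 against clone 1. The 3194 genes higher in clone 2 are red, the 2538 lower ones blue and the rest grey; Cavin2 lies alone at -7.13, and the curved edges are genes with 0 counts in one clone, whose fitted values depend on a prior count.

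Genes of epithelial trafficking and junctions were among those that rose most in clone 2. Rab25, a small GTPase of apical recycling endosomes in epithelia, was at 0.0699 and 0.482 CPM in clone 1 and 23.4 and 22.2 in clone 2, with 14.5 in each control library. Ap1m2 encodes the epithelial medium subunit of the AP-1 clathrin adaptor, which sorts proteins to the basolateral membrane, and was at 3.21 and 1.45 CPM in clone 1 against 48.3 and 50.5 in clone 2. The claudin gene Cldn7, a component of epithelial tight junctions, was at 0.839 and 0.803 CPM in clone 1 and at 40.0 and 42.2 in clone 2. In each of these every library of clone 1 lay far below those of clone 2 and of the control, which held 45.4 and 34.8 CPM of Ap1m2 and 61.7 and 57.3 of Cldn7. Their log2 fold changes were 6.41 ± 0.27, 4.37 ± 0.19 and 5.63 ± 0.17, with adjusted p-values of 4.9e-16, 5.5e-16 and 1.8e-19. Rab25 rests on 7 counts in clone 1, and clone 2 stood at 87.4 times clone 1 (95% counting interval 42.2 to 218).

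The sequences before the start sites of these 3 genes are shown because E-box and ETS motifs of epithelial genes are known binding sites of Snail, Zeb and ETS factors. They are the 250 bases before each gene's start in RefSeq (GRCm38.p6), 5′ to 3′ on the gene's strand. Capitals mark the E-box CAGGTG, read as CAGGTG or CACCTG for its 2 strands, and the ETS core CCGGAA, which is TTCCGG on the other strand. The regions are chr3:88548280-88548529 (minus strand) for Rab25, chr9:21312334-21312583 (minus strand) for Ap1m2 and chr11:69964529-69964778 (plus strand) for Cldn7.
Rab25: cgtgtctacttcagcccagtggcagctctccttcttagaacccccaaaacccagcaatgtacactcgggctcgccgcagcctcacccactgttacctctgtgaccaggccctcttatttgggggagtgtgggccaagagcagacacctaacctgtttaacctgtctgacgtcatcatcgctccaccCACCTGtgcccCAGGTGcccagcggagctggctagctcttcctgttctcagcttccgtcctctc
Ap1m2: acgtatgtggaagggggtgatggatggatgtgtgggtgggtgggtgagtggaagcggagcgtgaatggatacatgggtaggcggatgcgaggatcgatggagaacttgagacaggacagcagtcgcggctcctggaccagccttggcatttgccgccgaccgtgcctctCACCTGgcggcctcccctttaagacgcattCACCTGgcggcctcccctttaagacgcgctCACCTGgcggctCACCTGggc
Cldn7: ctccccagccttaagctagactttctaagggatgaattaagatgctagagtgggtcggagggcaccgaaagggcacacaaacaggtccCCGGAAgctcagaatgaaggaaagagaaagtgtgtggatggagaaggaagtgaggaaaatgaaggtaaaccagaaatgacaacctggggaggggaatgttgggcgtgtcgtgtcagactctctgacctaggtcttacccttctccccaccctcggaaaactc
Ap1m2 held 4 copies of the E-box, Rab25 2 and Cldn7 none. Of the 15 genes with the largest rise in clone 2, 14 had a promoter in the table, and 5 of those (35.7%) held the E-box, against 17.2% of all 32851 promoters of that length. Rasef was 1 of those 5, and its window lies inside the gene model used for positions rather than before its start. The ETS core stood in 2 of the 14 (14.3%), Cldn7 and Bspry, against 12.03% of all promoters. These shares are not like for like. The gene sets used 1 promoter per tested gene, the one nearest its start, whereas the 32851 were every promoter of every gene, expressed or not. The median CpG in the window was also 9.5 for the 14 genes and 6 for all promoters. A match describes these letters only and is no evidence that a factor binds there. Of the 15 genes that fell most, only 11 had a promoter in the table, and 1 of them held the E-box and none the ETS core. Of the 13 genes near absent from clone 1, described next, 12 had one. The E-box stood in 2 of these (16.7%), Rab25 and Rasef, close to the share of all promoters, and the ETS core in 1.

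Other genes of this group had almost no reads in clone 1. Fam111a, which encodes a protease linked to DNA replication and virus restriction, had 0 counts in both libraries of clone 1 and 44.2 and 41.1 CPM in clone 2, at least 382-fold higher over a floor of 3 counts per clone. Bspry, a B-box and SPRY domain protein, also had 0 counts in clone 1 and 19.9 and 20.3 CPM in clone 2, at least 179-fold higher. Rasef, a Rab-related GTPase with EF hands, had 2 counts in clone 1 and 39.8 and 48.6 CPM in clone 2, a ratio of 583 (95% counting interval 161 to 4818). The control also had reads of all 3, with 47.2 and 45.9 CPM for Fam111a, 20.8 and 19.97 for Bspry and 21.3 and 19.6 for Rasef. Fam111a shares 14.4% of its exonic length with a gene on the other strand, and whether the counting used strand is not given in the sources used here. Counting intervals and floors cover counting error only.

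By a rule of under 0.5 CPM in one clone and at least 5 CPM in the other, 15 of the 13763 genes tested were near absent from one clone, 13 of them from clone 1. This split depends on the limit. Sh3tc2, Dok7, Cables1 and Cdh23 had means just above it in clone 2 (0.557, 0.600, 0.645 and 0.706 CPM) and above 5 CPM in clone 1. Somewhat further above it in clone 1 stood Cldn7 (0.821 CPM) and Hexa (0.968 CPM). The zinc finger gene Zfp979 had 0 counts in clone 1 (at least 103-fold higher in clone 2). Serpinb2, a plasminogen activator inhibitor, and Acsl6, a fatty acid CoA ligase, also had 0 counts in clone 1 and were at least 53.2-fold and 52.4-fold higher in clone 2. Zfp518b had 3 counts in clone 1 and a ratio of 320 (95% counting interval 109 to 1554). Tmem266, a voltage-sensor membrane protein, had 1 count and a ratio of 431 (77.1 to 17072), and Dmd, which encodes dystrophin, had 2 and a ratio of 91.4 (25 to 759). The superoxide and peroxide producing oxidase gene Nox4, with 9 counts in clone 1, had a ratio of 48.2 (25.2 to 106). The 2 genes near absent from clone 2 were Pmp22, a peripheral myelin membrane protein, with 0 counts in clone 2 (at least 75.3-fold lower), and Pgf, the placental growth factor, with 11 counts against 142 in clone 1.

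Further genes among the 15 with the largest rise kept a low but measurable level in clone 1. Baiap2l1, which couples membrane curvature to actin, was at 12.02 and 10.4 CPM in clone 1, 123 and 127 in clone 2 and 95.8 and 93.6 in the control (3.47 ± 0.08, adjusted p = 2.0e-21). Adgrg3, an adhesion G protein coupled receptor, was at 1.89 and 1.53 CPM in clone 1 and 54.4 and 60.8 in clone 2 (5.06 ± 0.14, adjusted p = 5.0e-20). Rps6ka6, a ribosomal S6 kinase of the RSK family, was at 3.56 and 3.05 CPM in clone 1 and 51.4 and 54.0 in clone 2 (3.98 ± 0.13). These genes were chosen for libraries that do not overlap between the clones. Hexa, the alpha subunit of lysosomal hexosaminidase, was at 0.489 and 1.45 CPM in clone 1 and 15.9 and 12.7 in clone 2, and 12.8% of its exonic length lies over a gene on the other strand.

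**Figure D2:**
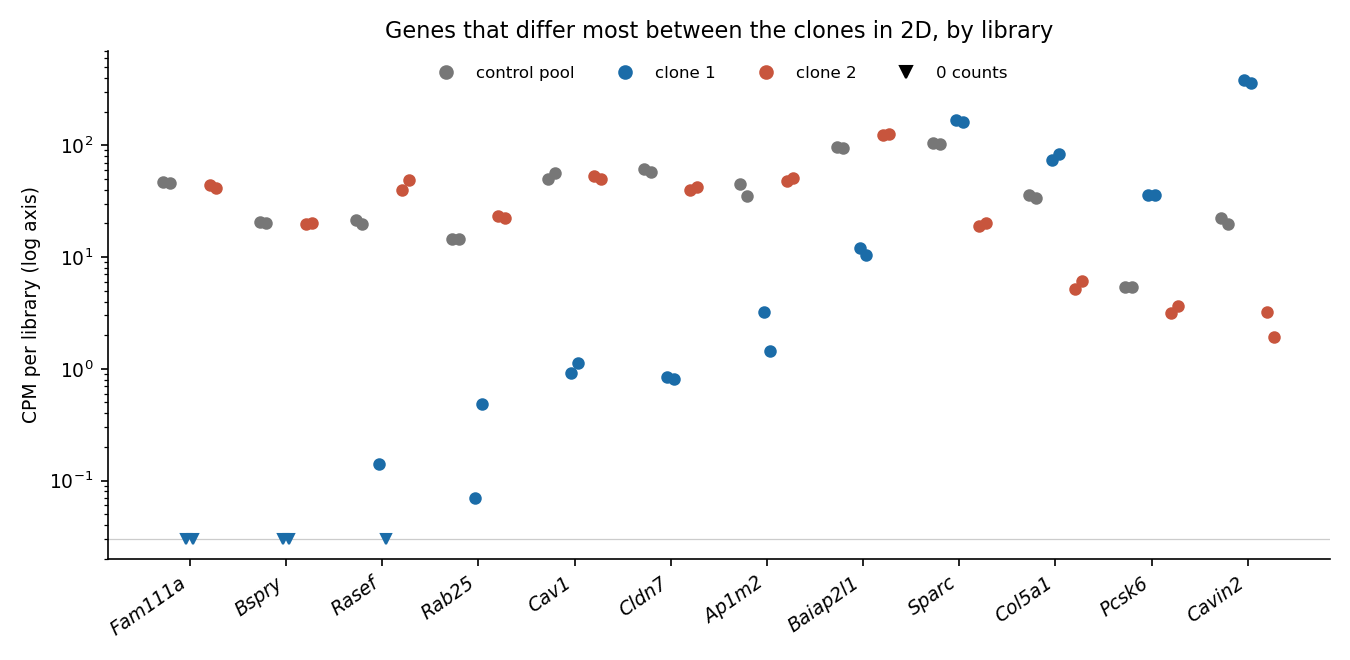
Level of 12 genes in each 2D library, in CPM on a log axis, with 2 points per group for the control pool, clone 1 and clone 2; triangles on the lower line are libraries with 0 counts. From Fam111a to Baiap2l1 the clone 1 points lie below all others, whereas for Sparc, Col5a1, Pcsk6 and Cavin2 clone 2 is lowest and clone 1 highest.

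Caveolae, the flask-shaped invaginations of the plasma membrane, had genes that split the clones sharply in both directions. Cav1 encodes caveolin-1, the main protein of the caveolar membrane, and was at 0.909 and 1.12 CPM in clone 1, 52.9 and 50.4 in clone 2 and 49.98 and 56.0 in the control (5.67 ± 0.16, adjusted p = 7.4e-20). Cavin2, which encodes a coat protein that bends that membrane, went the other way, with 387 and 362 CPM in clone 1, 3.25 and 1.92 in clone 2 and 22.4 and 19.8 in the control (-7.13 ± 0.13, adjusted p = 2.9e-24). For Cav1 it was clone 1 that lay outside the range of the other libraries, while for Cavin2 both clones lay outside the control, one above and one below it. Cavin1, the coat protein required for caveolae, rose from a mean of 69.6 CPM to 129 (0.88), and the scaffold partner Cav2 stood at 82.5 and 79.9 CPM (adjusted p = 0.64; 0.00108 with chromosomes centred, at -0.31). Of 8 caveolar genes tested, 3 were higher and 3 lower in clone 2 (37.5% each, against 23.2% and 18.4% of all genes). Their median was -0.02 against 0.01 over all genes. The 250 bases before both start sites, chr6:17306085-17306334 (plus strand) for Cav1 and chr1:51288876-51289125 (plus strand) for Cavin2, are printed because these 2 genes of one structure moved in opposite directions. Neither held the E-box or the ETS core, so no letter is in capitals. They also differ in CpG, with 10 in the window of Cav1 and 2 in that of Cavin2.
Cav1: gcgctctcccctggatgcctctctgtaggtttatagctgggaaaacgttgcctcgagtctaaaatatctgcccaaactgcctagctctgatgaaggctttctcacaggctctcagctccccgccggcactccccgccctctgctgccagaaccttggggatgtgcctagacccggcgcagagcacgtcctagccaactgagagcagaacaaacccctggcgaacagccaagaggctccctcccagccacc
Cavin2: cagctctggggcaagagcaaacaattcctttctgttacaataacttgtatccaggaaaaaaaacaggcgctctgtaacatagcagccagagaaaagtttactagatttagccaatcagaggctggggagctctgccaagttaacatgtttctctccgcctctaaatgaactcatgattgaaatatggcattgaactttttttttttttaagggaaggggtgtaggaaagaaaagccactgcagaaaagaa

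Genes of matrix proteins and of enzymes that process them were among the 15 that fell most in clone 2, a set in which Cavin2 fell furthest. Sparc, a collagen-binding matricellular protein, was at 168 and 163 CPM in clone 1, 18.99 and 20.3 in clone 2 and 105 and 102 in the control (-3.07 ± 0.07, adjusted p = 2.0e-21). Col5a1, a chain of the fibril-forming type V collagen, was at 73.0 and 83.8 CPM in clone 1, 5.15 and 6.12 in clone 2 and 35.5 and 33.9 in the control (-3.81 ± 0.12, adjusted p = 2.9e-19). For both, the control lay between the clones. Pcolce, which enhances the cleavage of the procollagen C-terminus, was at 28.6 and 30.1 CPM in clone 1 and 5.26 and 3.56 in clone 2 (-2.70 ± 0.15), and here clone 1 was close to the control at 21.6 and 27.2. Pcsk6, a proprotein convertase that activates growth factors of the TGF-beta family, was at 35.6 and 36.1 CPM in clone 1 and 3.15 and 3.63 in clone 2, beside 5.38 and 5.40 in the control (-3.41 ± 0.15). The membrane-bound metalloproteinase gene Adam8 was at 85.5 and 103 CPM in clone 1, 14.9 and 15.4 in clone 2 and 26.9 and 29.6 in the control (-2.64 ± 0.10). For these last 2 genes the control lay nearer to clone 2.

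Among the others of the 15 with the largest fall were Fgfbp1, a carrier of fibroblast growth factors, at 172 and 173 CPM in clone 1 and 33.0 and 27.0 in clone 2 (-2.51 ± 0.08). Sirpa, the receptor for CD47, was at 41.8 and 40.8 CPM in clone 1 and 9.22 and 10.95 in clone 2, and the control at 4.96 and 6.21 was below both. Dab2, an endocytic adaptor, fell by 2.48 on the log2 scale, and Amigo2, an adhesion protein, fell by 2.698. The matrix cross-linking enzyme Tgm2 fell by 2.37 and Atp1b1, the beta subunit of the sodium pump, fell by 2.12; 21.8% and 18.7% of their exonic lengths lie over genes on the other strand.

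Of 16 cadherin and desmosome genes tested, 8 were higher (50%) and 2 lower (12.5%) in clone 2 (median 0.15), against 23.2% higher and 18.4% lower over all genes. Epcam, the epithelial adhesion molecule, was at 217 CPM in each library of clone 1 and at 447 and 437 in clone 2 (1.02 ± 0.05), the desmoglein Dsg2 rose by 0.73 and the plakophilin Pkp2 by 0.63. Cdh1, which encodes E-cadherin, was among the 2 that fell, from a mean of 297 CPM to 261 (-0.18 ± 0.06). Of 18 tight junction genes, 4 were higher (22.2%) and 3 lower (16.7%), near those shares (median 0.07): beside Cldn7, the claudins Cldn4 and Cldn3 rose by 0.27 and 0.41, while F11r, a junctional adhesion molecule, fell by 0.32 (-0.12 with chromosomes centred, adjusted p = 0.186). The scaffold Tjp1 stood at 0.10 (adjusted p = 0.21).

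Keratin genes and regulators of the epithelial-mesenchymal transition changed by gene rather than as a class. The simple epithelial keratin genes Krt8 and Krt18 rose by 0.73 and 0.49, from means of 1096 and 1050 CPM to 1815 and 1473, and Krt14, a basal keratin, was at 9.99 and 12.4 CPM in clone 1 and 41.4 and 41.0 in clone 2 (1.89 ± 0.11), below the control at 78.6 and 77.6. Vim, the mesenchymal filament vimentin, fell by 0.63, from 1987 CPM to 1281, and Krt7 and Krt80 fell by 0.48 and 0.84. In all, 3 of the 9 genes tested were higher (33.3%) and 4 lower (44.4%). Of 17 regulators of the epithelial-mesenchymal transition, 4 were higher (23.5%) and 2 lower (11.8%), with a median of -0.10. Over all genes the shares were 23.2% and 18.4%, so the share of higher genes was near that of all genes. Without clone 2 replicate 1 or with chromosomes centred, 4 were lower. Those that rose were the epithelial factors Grhl2 (0.37), Ovol1 (0.66) and Ovol2 (0.95) and the splicing factor Esrp1 (0.96). The mesenchymal repressor Zeb2 fell by 0.48 and the epithelial factor Elf3 by 0.57 (-0.37 with chromosomes centred, adjusted p = 0.0885), and Twist1 stood at -0.20 (adjusted p = 0.20). The splicing factor Esrp2 stood at -0.20 (adjusted p = 0.058), and with chromosomes centred at -0.32 (adjusted p = 0.00336). The luminal sum given above was higher in clone 2, mostly through Krt8, Krt18 and Epcam, and the basal sum was lower, mostly through Vim and Itga6. By count, 3 of 11 luminal markers tested were higher (27.3%) and 2 lower (18.2%). Of 12 basal markers 2 were higher (16.7%), Krt14 among them, and 3 lower (25%). The part of these markers in the gene differences was not tested.

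Of 13 laminin and basement membrane genes, 7 were lower (53.8%, against 18.4% of all genes) and 3 higher (23.1%, against 23.2%) in clone 2, with a median of -0.38 against 0.01 over all genes. The laminin chains Lamb2, Lama5 and Lamc1 fell by 0.81, 0.64 and 0.59, and the heparan sulfate proteoglycan gene Hspg2 by 0.70, whereas Lama3 and Agrn rose by 0.60 and 0.37. With chromosomes centred Agrn stood at 0.09 (adjusted p = 0.228). The basement membrane collagen genes Col4a1 and Col4a2 were at 0.13 (adjusted p = 0.03; 0.943 with chromosomes centred) and 0.08 (adjusted p = 0.26). Over 17 collagen chains, 3 were higher (17.6%) and 5 lower (29.4%): Col7a1, Col8a1 and Col18a1 fell by 0.66, 0.56 and 0.37, and Col12a1 was at 20.4 and 16.3 CPM in clone 1 and 38.2 and 43.4 in clone 2 (1.14 ± 0.14). Among 16 matricellular genes, 3 were higher (18.8%) and 6 lower (37.5%). Spp1, or osteopontin, was at 109 and 112 CPM in clone 1, 27.3 and 31.6 in clone 2 and 120 and 119 in the control (-1.92 ± 0.07), and 18.8% of its exonic length overlaps another gene on the same strand. Fibronectin (Fn1) fell by 0.35 and thrombospondin-1 (Thbs1) rose by 0.46.

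In a list of 18 genes of matrix metalloproteinases, Adam and Adamts proteases and Timps, 8 were lower and 2 higher (median -0.33). Adam8, Adam12 and Adamts1 were among the lower genes and Adamts9 among the higher ones. These were 44.4% and 11.1%, against 18.4% and 23.2% of all genes. The collagenase-activating Mmp14 fell by 0.40, stromelysin-1 (Mmp3) by 0.93, and the inhibitors Timp1 and Timp2 by 0.43 and 0.40, so proteases and inhibitors were among those that fell. Of 16 integrin chains, 7 were higher (43.8%) and 3 lower (18.8%, or 5 genes with chromosomes centred). Itga6, a laminin receptor chain, was at 1022 and 1016 CPM in clone 1, 476 and 480 in clone 2 and 411 and 459 in the control (-1.09 ± 0.05, adjusted p = 8.7e-15). Itgb6, the epithelial chain of an integrin that activates latent TGF-beta, was at 13.2 and 11.5 CPM in clone 1 and 52.1 and 54.9 in clone 2 (2.11 ± 0.11), and Itga7 and Itga2 rose by 1.21 and 0.80. For Itga6 clone 1 was above all other 2D libraries, and for Itgb6 the control at 29.6 and 30.8 lay between the clones. Of 13 genes of the plasminogen system and serpins, 4 were higher (30.8%) and 2 lower (15.4%), none being lower without clone 2 replicate 1. Serpinb5, or maspin, was at 3.77 and 2.57 CPM in clone 1 and 29.5 and 33.0 in clone 2 (3.28 ± 0.16).

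**Figure D3:**
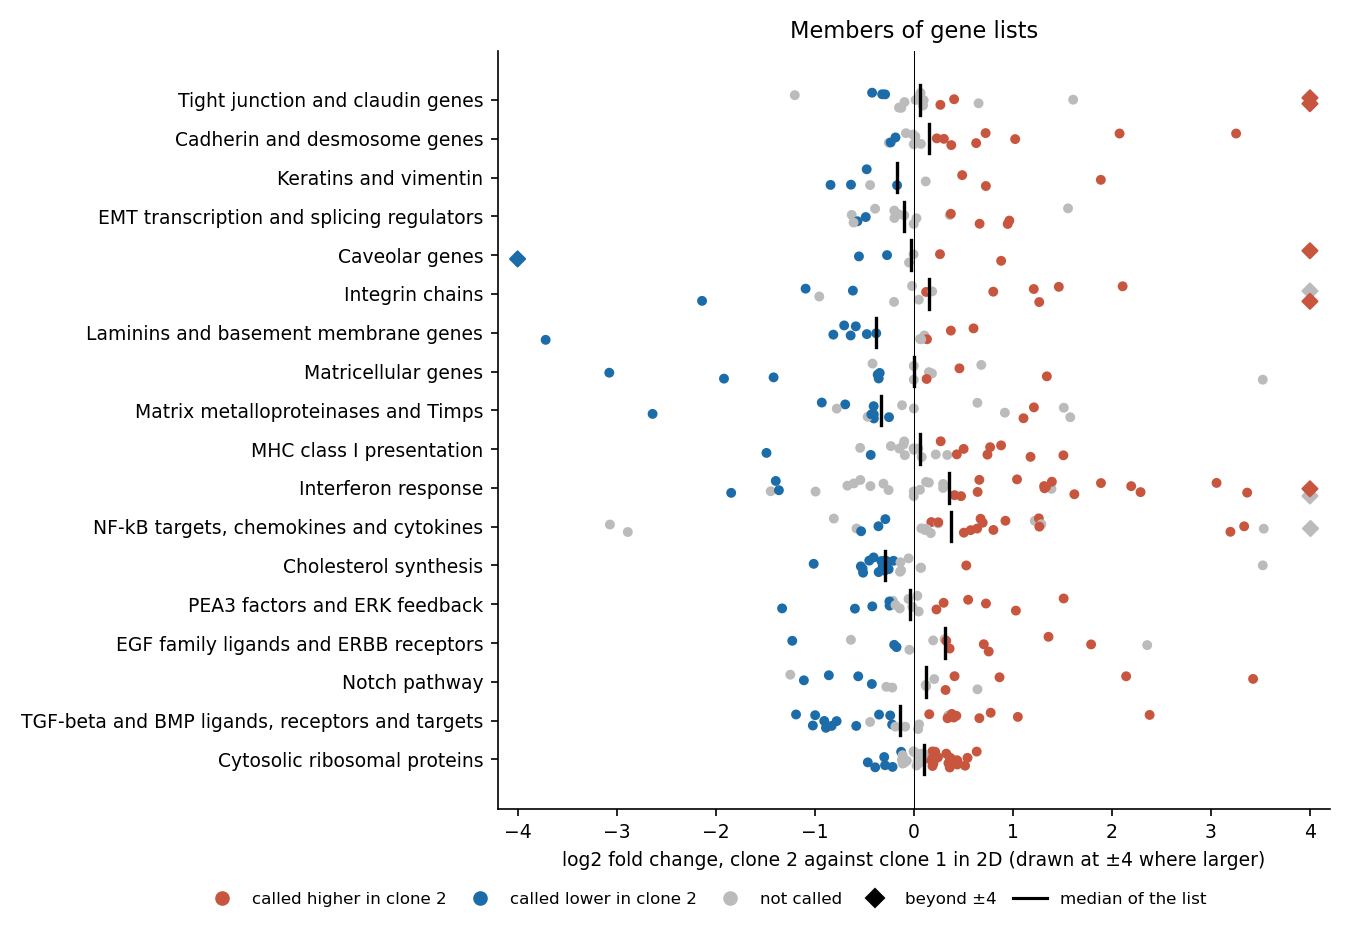
Log2 fold change of clone 2 against clone 1 in 2D for each tested member of 18 gene lists, 1 point per gene, with the list's median as a black bar and values beyond 4 drawn at the edge as diamonds. The bar lies lowest for the laminin list at -0.38 and highest for the NF-kB list at 0.38, and the caveolar list has a median of -0.02 with a member at each edge.

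In the PEA3 and ERK feedback list 6 of 18 were higher (33.3%) and 5 lower (27.8%), against 23.2% and 18.4% of all genes. The median was -0.03. Without clone 1 replicate 2, 3 were lower, and without either control library in 2D, 8 were. The ERK phosphatase genes Dusp6 and Dusp4 rose by 1.03 and 0.55, with Dusp6 at 90.2 and 92.3 CPM in clone 1 and 189 and 184 in clone 2, and the ephrin receptor Epha4 rose by 1.51. The Sprouty-related inhibitor Spred3 fell by 1.33, and Ccnd1, or cyclin D1, by 0.24. Of 14 EGF family and ERBB genes, 6 were higher (42.9%) and 3 lower (21.4%), with a median of 0.32. Only 1 was lower once chromosomes were centred or clone 1 replicate 1 or clone 2 replicate 1 was left out. The receptor inhibitor Errfi1 was at 122 and 129 CPM in clone 1, 329 and 315 in clone 2 and 352 and 321 in the control (1.36 ± 0.06). The early response gene Junb was at 147 and 144 CPM in clone 1 and 288 and 313 in clone 2 (1.04 ± 0.05). Of 22 early response genes 6 were higher and 6 lower (27.3% each), or 3 lower without clone 2 replicate 2.

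The Notch ligand gene Jag1 was at 32.1 and 32.5 CPM in clone 1, 138 and 148 in clone 2 and 57.5 and 67.7 in the control (2.14 ± 0.08, adjusted p = 1.3e-17). The ligand Jag2 and the receptor Notch1 went the other way, falling by 0.86 and 1.11, and the target Hes1 rose by 0.87. Of 16 Notch genes, 5 were higher (31.2%) and 4 lower (25%), against 23.2% and 18.4% of all genes. In the TGF-beta and BMP list 9 of 26 were higher (34.6%) and 11 lower (42.3%), with a median of -0.14. The latent TGF-beta binding proteins Ltbp4, Ltbp2, Ltbp1 and Ltbp3 fell by 1.19, 0.89, 0.83 and 0.35, the receptor Tgfbr2 by 0.58 and the target Id2 by 0.90, and the activin subunit gene Inhba rose by 1.05. Of 27 Wnt genes 5 were higher and 5 lower (18.5% each), near the shares over all genes: the secreted antagonist Sfrp1 was at 7.69 and 8.999 CPM in clone 1 and 27.1 and 27.4 in clone 2 (1.71 ± 0.12), and the receptor Ror1 fell by 1.33.

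Inflammatory genes included more that rose than fell. Of 30 NF-kB targets, chemokines and cytokines, 13 were higher (43.3%, against 23.2% of all genes) and 3 lower (10%, against 18.4%). Their median was 0.38. Tnfaip3, the NF-kB feedback enzyme A20, rose by 0.93, the chemokine gene Cxcl16 by 0.64, and the granulocyte growth factor gene Csf3 was at 14.3 and 16.8 CPM in clone 1 and 37.0 and 37.3 in clone 2 (1.26 ± 0.11). Of 36 interferon response genes, 16 were higher (44.4%) and 3 lower (8.33%), with a median of 0.35. Parp14, Ifi27 and the GTPase gene Irgm1 rose by 1.89, 1.34 and 1.32, and Irgm1 was at 7.27 and 9.24 CPM in clone 1, 19.1 and 21.9 in clone 2 and 14.5 and 12.5 in the control. The 3 that fell, Ifit1, Ifit2 and Oasl1, are also induced by interferon, and Ifit2 was at 23.8 and 18.4 CPM in clone 1 and 7.16 and 9.10 in clone 2 (-1.39 ± 0.16). Among 22 genes of MHC class I presentation 8 were higher (36.4%) and 2 lower (9.09%), with a median of 0.06, and 4 were higher without clone 2 replicate 1. The immunoproteasome gene Psmb8 rose by 1.51, with 14.7% of its exonic length over a gene on the other strand, while the heavy chains H2-K1 and H2-D1 and the light chain B2m stood at 0.00, -0.10 and -0.10 with adjusted p-values above 0.05. With chromosomes centred H2-K1 and H2-D1 stood at 0.30 (adjusted p = 0.000473) and 0.19 (adjusted p = 0.0294). Nlrc5, the activator of class I genes, fell by 1.49 and was at 3.49 and 3.78 CPM in clone 1, 1.46 and 1.07 in clone 2 and 22.1 and 22.3 in the control.

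In metabolism, the cholesterol synthesis list leaned to one side: 16 of 24 genes were lower in clone 2 (66.7%, against 18.4% of all genes), 1 was higher and the median was -0.29. Ebp, the sterol isomerase, was at 48.8 and 54.6 CPM in clone 1 and 26.5 and 24.7 in clone 2 (-1.01 ± 0.09), and squalene synthase (Fdft1) and the sterol demethylase Cyp51 fell by 0.52 and 0.41. Of 14 fatty acid synthesis genes 7 were lower (50%) and 4 higher (28.6%), the latter falling to 0 with chromosomes centred. The desaturase Scd2 fell by 0.56, and fatty acid synthase (Fasn) rose by 0.37. Fasn and Acly, the citrate lyase gene (0.24), lie on chromosome 11, and after each chromosome was centred on its median they stood at 0.11 (adjusted p = 0.0832) and -0.017 (adjusted p = 0.855). Hypoxia and glycolysis genes were split, with 8 of 28 higher (28.6%, or 3 genes with chromosomes centred) and 7 lower (25%). Over all genes 23.2% were higher and 18.4% lower. Pdk1 and Vegfa fell by 0.67 and 0.80, and Tpi1 and Eno1 rose by 0.39 and 0.28. With chromosomes centred Tpi1 and Eno1 stood at 0.12 (adjusted p = 0.0835) and -0.007 (adjusted p = 0.984). In the glutathione and NRF2 list 9 of 26 were higher (34.6%) and 3 lower (11.5%, or 6 genes with chromosomes centred). Gstm2 was at 1.26 and 1.12 CPM in clone 1 and 6.78 and 7.04 in clone 2 (2.52 ± 0.25), and Gsta4 fell by 1.18.

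Proliferation genes showed small differences on plastic. Of 35 replication and mitosis genes 12 were higher (34.3%, or 5 genes with chromosomes centred) and 6 lower (17.1%). Over all genes 23.2% were higher and 18.4% lower. The median was 0.06, with Mki67 at -0.11 (adjusted p = 0.18), Pcna at -0.10 (adjusted p = 0.12), Ccne2 at 0.57 and Mcm6 at -0.39. The Cdk inhibitor gene Cdkn1a was at 0.349 and 1.21 CPM in clone 1 and 2.55 and 4.196 in clone 2 (2.12 ± 0.36, adjusted p = 3.1e-05), a low level in every 2D library. Of 48 cytosolic ribosomal protein genes 21 were higher (43.8%) and 6 lower (12.5%, or 3 genes with chromosomes centred). Their median was 0.10, from Rpl38 at 0.64 to Rpl14 at -0.46. Of 31 nuclear genes of oxidative phosphorylation 10 were higher (32.3%) and 4 lower (12.9%), with a median of 0.01. These counts were 4 and 1 with chromosomes centred, and 6 higher and 7 lower without clone 1 replicate 2. Of 12 genes of the mitochondrial genome 7 were lower (58.3%) and none was higher, with a median of -0.75. The mitochondrial genome took 0.449 and 0.515% of the counts in clone 1, 0.366 and 0.314% in clone 2 and 0.437 and 0.457% in the control. The mitochondrial genes mt-Nd1, mt-Co1 and mt-Cytb fell by 0.90, 0.42 and 0.54; near-identical nuclear copies of mitochondrial genes could share their reads.

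Of 11 imprinted genes tested, of which 1 parental copy is expressed, 2 were higher (18.2%) and 3 lower (27.3%), against 23.2% and 18.4% of all genes. Mest was at 5.73 and 4.42 CPM in clone 1, 36.2 and 42.0 in clone 2 and 17.9 and 15.2 in the control (2.93 ± 0.13), and the antisense RNA gene Kcnq1ot1 was at 104 and 133 CPM in clone 1, 53.1 and 47.2 in clone 2 and 40.6 and 59.8 in the control (-1.23 ± 0.12). For Mest 23.1% of the exonic length lies over a gene on the other strand.

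The small differences were not spread evenly over the genome. On chromosome 4, 377 of 845 genes were higher and 46 lower in clone 2, with a median of 0.28. Chromosomes 6, 11, 16, 3 and 10 had medians of 0.27, 0.26, 0.25, 0.23 and 0.21, and 39.5 to 44.0% of their genes were higher. In the other direction, 321 of 686 genes on chromosome 17 were lower and 22 higher (median -0.30), and on chromosome 1, 290 of 776 were lower and 52 higher (median -0.20). Chromosomes 7, 12 and 13 had medians of 0.00. Beside the control, which both clones share, chromosome 11 had a median of -0.33 in clone 1 and -0.08 in clone 2, chromosome 17 of 0.20 and -0.07, and chromosome 1 of -0.09 and -0.27. When each chromosome was centred on its median, 4643 genes still differed between the clones, 2175 higher and 2468 lower. Large changes stood on chromosomes of either sign: Cavin2 lies on chromosome 1, Bspry and Rasef on chromosome 4, Cav1 on chromosome 6 and both Cldn7 and Sparc on chromosome 11. Of these genes only Sparc changed in the direction opposite to the median of its chromosome.

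**Figure D4:**
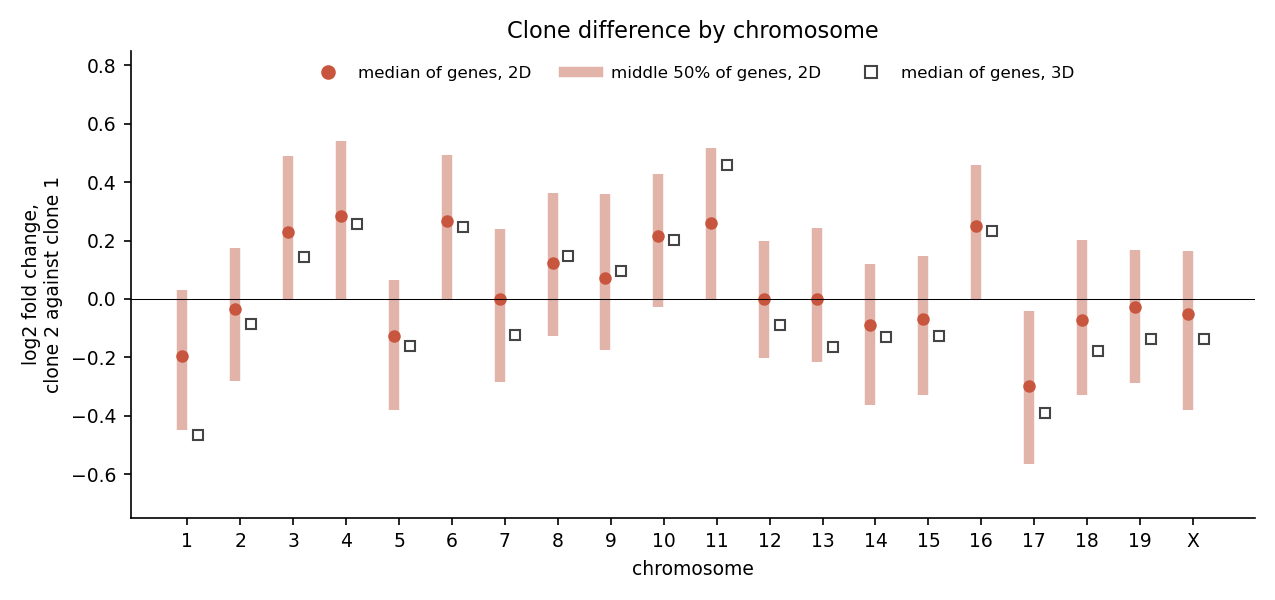
Log2 fold change of clone 2 against clone 1 by chromosome: filled circles are the medians of all genes tested in 2D, bars the middle 50% of genes in 2D, and open squares the medians in 3D. Chromosome 4 is highest in 2D at 0.28 and chromosome 17 lowest at -0.30. The 3D median has the sign of the 2D median on 17 of the 20 chromosomes. Chromosomes 7, 12 and 13 are not among them because their 2D medians round to 0.00.

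Genes were put in bins of about 75 in order of position to see how the difference ran along a chromosome. On chromosome 11 all 15 bins had medians between 0.11 and 0.46, and the highest, between Arhgap27os1 and Atp5h (103363213 to 115419962), had 46 of 75 genes higher and 2 lower. Chromosome 3 changed along its length: its first 7 bins had medians of 0.24 to 0.32 and its last 2, from 116488963 on, 0.04 and 0.10. On the X chromosome the first bin, from Shroom4 to Ube2a (6399854 to 36884222), had a median of -0.40 with 36 of 73 genes lower and 4 higher, while the other 4 bins lay between -0.08 and 0.05. The number of copies of each chromosome was not measured, and its part in these differences was not tested.

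**Figure D5:**
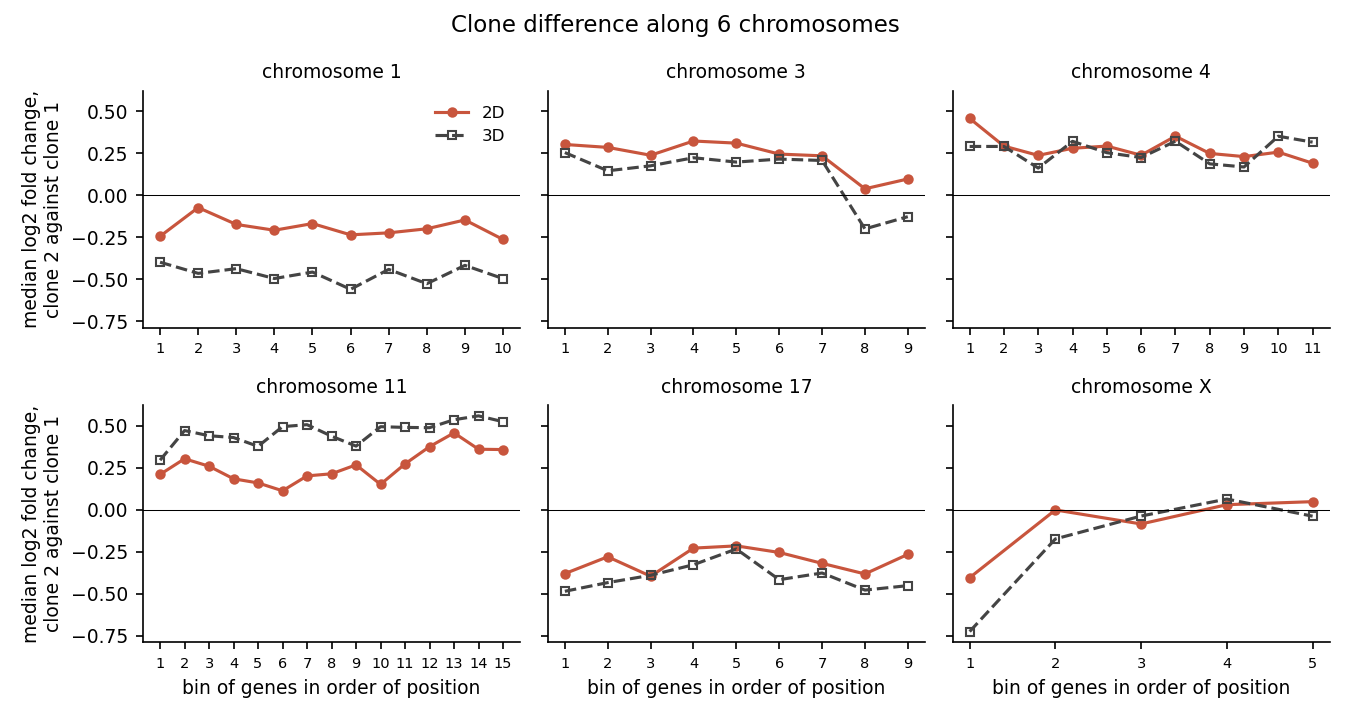
Median log2 fold change of clone 2 against clone 1 in bins of about 75 genes in order of position, on 6 chromosomes, in 2D (filled circles) and 3D (open squares). In 2D the medians keep 1 sign in every bin of chromosomes 1, 4, 11 and 17, coming nearest to 0 at -0.07 in the second bin of chromosome 1; chromosome 3 drops to 0.04 and 0.10 in its last 2 bins, and the first bin of X is at -0.40 in 2D and -0.72 in 3D.

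The same clone comparison in collagen I gels used 4 other libraries of the same clones. There 7553 genes (54.9%) differed, 3633 higher (26.4%) and 3920 lower (28.5%). The 3D libraries were deeper, with 27.6 and 33.2 M counts in clone 1 and 27.2 and 26.5 M in clone 2. The numbers of genes called in the 2 formats are therefore not like for like. Of the 505 genes at least 2-fold higher in 2D, 386 (76.4%) were called higher in 3D, 14 lower and 105 neither. Of the 409 at least 2-fold lower, 237 (57.9%) were called lower, 22 higher and 150 neither. In 3D, 922 genes (6.7%) were at least 2-fold higher and 534 (3.88%) lower. The genes past 2-fold in both formats were 326 higher genes, 64.6% of the 2D list and 35.4% of the 3D list, and 158 lower genes, 38.6% and 29.6%. Across the 13763 genes, which are not independent replicates, the log2 fold changes in the 2 formats had a Pearson correlation of 0.51, and the medians of 20 chromosomes one of 0.95; both formats used the same clones and 1 fit.

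All 15 genes with the largest rise in 2D were called higher in 3D too, and 13 of the 15 with the largest fall were called lower. In gels Cldn7 was at 3.23 and 2.80 CPM in clone 1 and 109 and 111 in clone 2, and Cav1 at 0.570 and 0.451 against 40.6 and 40.1. Cavin2 was at 58.3 and 54.9 CPM in clone 1 and 0.455 and 0.584 in clone 2. Levels of these genes moved with the format, while the clones stayed separated. Amigo2 and Btn1a1, the milk fat globule protein butyrophilin, were the 2 whose fall was not called in 3D: Amigo2 was at 6.38 and 5.67 CPM in clone 1 and 7.45 and 5.73 in clone 2 there.

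The clone difference itself depended on the format for 4095 genes (29.8%), of which 1491 (10.8%) were more positive and 2604 (18.9%) more negative in 3D. The dependence was at least 2-fold in size for 591 (4.29%), 356 more positive (2.59%) and 235 more negative (1.71%). Krt14, higher in clone 2 on plastic, was lower in gels, at 16.0 and 14.3 CPM in clone 1 and 7.59 and 7.84 in clone 2 (difference between formats -2.86, adjusted p = 3.3e-13). Cdkn1a likewise turned, and in gels it was at 47.5 and 48.2 CPM in clone 1 and 32.5 and 34.4 in clone 2. Sparc fell further, to 1.64 and 1.42 CPM in clone 2 against 75.9 and 79.9 in clone 1. Nlrc5 turned the other way, with 5.77 and 7.31 CPM in clone 1 and 10.2 and 10.4 in clone 2. By list, 29 of 36 interferon genes were higher and 1 lower in 3D with a median of 1.65, beside 16 and 3 with a median of 0.35 in 2D. Of the 35 replication and mitosis genes none was higher and 31 were lower in 3D (median -0.55), and of the 24 cholesterol synthesis genes 9 were higher and 8 lower (median -0.01). Of the 9 keratin and vimentin genes none was higher and 6 were lower in 3D, beside 3 and 4 in 2D. Of 16 ER chaperone and unfolded protein response genes 1 was higher and 12 lower, beside 7 and 1 in 2D. Fatty acid synthesis genes moved the other way, with 10 of 14 higher and 2 lower, beside 4 and 7 in 2D. Over all genes 26.4% were higher and 28.5% lower in 3D. Culture format, collagenase digestion and count table changed together, so their parts in these differences cannot be told apart.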

How the data were processed

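Polyadenylated RNA of the 12 libraries was prepared with a stranded TruSeq kit, per the labels' protocols. The authors deposited raw read counts per gene, in 1 table for 2D and 1 for 3D. Per the submitters' processing notes build mm10 was used with Cell Ranger 3.0.0, R 4.1.1, featureCounts, STAR 2.7.9a and FastQC 0.11.9; their roles and the strand setting are not given in the sources used here.

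Both tables were joined by symbol and fitted with edgeR 4.0.16 in R 4.3.3: filterByExpr, TMM scaling, 1 mean for each of 6 groups and its quasi-likelihood test (two-sided), with p-values adjusted by Benjamini-Hochberg across the 13763 genes tested (threshold 0.05). Residual degrees of freedom were 6, and the biological coefficient of variation was 4.51%. CPM are counts per M after TMM scaling. Positions and overlaps came from GENCODE M21, which placed 98.9% of the genes tested. The procedure was tested on simulated counts. DESeq2 1.42.0 served as an alternative, beside other scalings, filters, subsets and left-out libraries.

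Members and the 39 gene lists were chosen with earlier results of these data known. Named genes were Etv4, Etv1 and Etv5; the 15 higher and 15 lower with the largest change past the threshold, a mean of at least 5 CPM and no overlap between the clones' libraries; genes under 0.5 CPM in one clone and at least 5 in the other; and per list up to 4 members with the smallest p. Other list members and the mitochondrial genes were named after their values were seen. Stress, zinc, actin and marker lists are given among the other observations. Some items are not reported here.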

Additional observations from a re-analysis of the deposited data

Results flagged for a closer look

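For the following genes, of those named by rule, the clone difference in 3D minus that in 2D was itself past an adjusted p of 0.05 (edgeR's quasi-likelihood test) and at least 2-fold in size; genes with 3 or fewer counts in a clone were left out. Each value below is that difference on the log2 scale, and no explanation was tested. The direction turned for Krt14 (-2.86), Cdkn1a (-2.64), Lama3 (-1.92), Ier2 (-1.27), Itga2 (-1.01), Mthfd2 (-1.001), Nlrc5 (2.13), Ifit2 (1.61), Col7a1 (1.38), Hspg2 (1.004) and Amigo2 (2.83), although for Ifit2 and Amigo2 the value in 3D did not pass the threshold. Genes higher in clone 2 in both formats had a smaller difference in 3D for Adgrg3 (-3.15), Serpinb5 (-2.57), Nkd2 (-2.42), Il1a (-1.58) and Mest (-1.53) and a larger one for Cldn3 (1.26), Psmb8 (1.25) and Thbs1 (1.102). Genes lower in clone 2 in both formats were further apart in 3D for Pcsk6 (-3.16), Sparc (-2.59), Gsta4 (-2.12), Sh3tc1 (-2.004), Cyr61 (-1.80) and Fgfbp1 (-1.77). They were closer together for Btn1a1 (1.65), whose value in 3D did not pass the threshold, Tgm2 (1.51), Pcolce (1.20) and Sirpa (1.02).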

How the results depend on the processing

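The 30 genes with the largest change kept their direction and their side of the threshold in all 617 refits over 21 alternative settings. They were picked from these same counts for large changes past the threshold, so this was close to fixed in advance and is no independent support. Those that overlap another gene were not refitted in the setting restricted to genes without overlap. With DESeq2's Wald test 5341 genes differed and with relative log expression size factors 5735. Without a filter on low counts 5760 of 20769 genes tested differed (2914 higher and 2846 lower). The 2D libraries alone gave 4550 of 11619 genes tested and the 4 clone libraries alone 4729 of 11343, so these numbers differ partly through the genes tested. Restricting the test to the 8201 genes that overlap no other gene left 3612 genes, 2037 higher and 1575 lower, 609 of them at least 2-fold, with 4758 in 3D and 2575 for the dependence on format; this alternative tests fewer genes. Leaving out 1 library at a time gave 4864 to 6178 genes in 2D, 2594 to 3438 higher, 2224 to 2754 lower and 856 to 1017 at least 2-fold, with 6043 to 8094 in 3D and 2951 to 4554 for the dependence on format. A replicate block left 5665 genes in 2D, 7469 in 3D and 3961 for the dependence on format. Same-numbered libraries of the clones in 2D deviated with a correlation of -0.10 across genes. With 2 libraries per group this value cannot tell whether same-numbered libraries belong together. Acly turned to -0.017 once chromosomes were centred, and 17 genes named by rule lost their call there, as did Agrn, Col4a1, Elf3 and Eno1, named otherwise. Cd74 lost its call in 11 settings, Krt19 in 9 and Pdgfra in 3. Depth limits genes with few counts in one clone, whose folds are given as bounds or with counting intervals.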

Other observations

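Stress and cytoskeletal genes were described by count and share only, beside 23.2% higher and 18.4% lower over all genes. Of 15 cytosolic heat shock genes 7 were lower (46.7%) and 4 higher (26.7%) in clone 2 in 2D. Hspb8 fell from a mean of 175 CPM to 108 and Hspa4 rose from 563 to 732. With chromosomes centred 3 were lower and 2 higher, and Hspa4 stood at 0.12 (adjusted p = 0.0768). Of 16 ER chaperone and unfolded protein response genes 7 were higher (43.8%) and 1 lower (6.25%), Xbp1 rising by 0.55 and Sel1l being the 1 that fell. With chromosomes centred 4 were higher and 3 lower. In the ATF4 list 6 of 21 were higher (28.6%) and 2 lower (9.52%). Nupr1, a stress-induced nuclear protein, was at 6.50 and 7.07 CPM in clone 1 and 16.9 and 16.6 in clone 2. Of 20 Cdk inhibitor, cyclin D and p53 target genes 7 were higher (35%, or 4 genes without clone 2 replicate 1) and 3 lower (15%). Of 20 zinc transporter and metallothionein genes 4 were higher (20%) and 5 lower (25%), the 5 being the transporters Slc30a4, Slc39a7, Slc39a10, Slc39a13 and Slc39a6. Of 28 actin, SRF and YAP target genes 7 were higher (25%, or 3 genes with chromosomes centred) and 9 lower (32.1%), Axl falling by 0.44 and Cnn2 rising by 0.69.

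Of 11 luminal markers tested 3 were higher (27.3%) and 2 lower (18.2%), and of 12 basal markers 2 (16.7%) and 3 (25%). Of 3 leukocyte markers tested 2 were higher, Csf1r with 31 counts in clone 2 and Cd74 with 8, both at 0 in clone 1. All 8 counts of Cd74 were in clone 2 replicate 1, and its call was lost in 11 settings. Of 4 fibroblast markers tested Postn was higher and Pdgfra lower, and of 4 endothelial markers Eng was lower. Tests are edgeR's quasi-likelihood test at an adjusted p of 0.05.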
